A study of Sus scrofa with 15 samples.

Results

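ATF3 and 9 immediate early genes (FOS, FOSB, FOSL2, JUN, JUNB, EGR1, IER3, KLF4 and MYC) were followed in the backfat of Iberian pigs fed olive by-products. The 10 genes were chosen by name, all were found among the 30477 listed genes, and all passed the filter on low counts that left 14918 genes for testing. Backfat RNA was sequenced from 15 pigs, 5 per diet. The control group (C) received a compound feed, the DOP group a compound feed made with dry olive pulp, and the WCOC group a compound feed together with a freely offered silage of wet crude olive cake and barley straw. All pigs were of the Iberian breed and were about a year old when a core of fat was taken under sedation and local anaesthesia and snap frozen. Compound feed was restricted in all groups, to a lower share of free energy intake in both olive groups than in C. This feeding level cannot be told apart from the olive by-products. Each diet was fed in 1 pen, so that diet and pen cannot be told apart, and the 5 pigs per diet were chosen by the quantity and quality of their RNA.

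Immediate early genes are switched on within minutes of a signal at the cell surface or of cell stress, without new protein synthesis, and their RNAs are short-lived. Kinase cascades reach serum response factor (SRF), which sits with its partners on CArG boxes near these genes, and the cAMP response element binding protein. FOS, FOSB, FOSL2, JUN, JUNB and ATF3 belong to the basic leucine zipper family whose pairs make up the transcription factor AP-1. EGR1 and KLF4 are zinc finger factors, MYC drives growth programmes together with MAX, and IER3 is a small regulator of survival signalling. In fat, FOS, JUN, KLF4 and MYC are among the first genes to respond when preadipocytes are induced, and ATF3 is a stress-responsive repressor that is prominent in macrophages.

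Libraries held 22373715 to 34745218 counts on genes. Levels are given as CPM (counts relative to the library total, scaled by TMM), replicates are listed from 1 to 5, and a gene was called when its log2 fold change (log2FC) was at least 0.58 in size with an adjusted p under 0.05 (edgeR quasi-likelihood test, adjusted over all tested genes). The counts behind a single value ranged from 13 for FOSB in C replicate 2 to 11783 for FOS in DOP replicate 2. Adipocyte markers were high in every library (9 markers, none under 173.7 CPM). DOP replicate 2 stood apart in most of the 10 genes. Its red blood cell genes, a list chosen after their values were seen, summed to 15849 CPM against 906 to 3364 CPM in the other libraries. Skeletal muscle markers (3 measured) summed to 8755 CPM there, to 37593 CPM in DOP replicate 5, to 4812 CPM in DOP replicate 4 and to at most 2916 CPM elsewhere. All DOP libraries and C replicate 5 were run on flow cell B, and all other libraries on flow cell A.

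In the RefSeq annotation of Sscrofa11.1 all 10 genes were found by symbol, and none overlaps another protein-coding gene. RefSeq places FOS (ENSSSCG00000002383) at chr7:98449508-98451971, FOSB (ENSSSCG00000031616) at chr6:51836780-51844531, JUN (ENSSSCG00000031912) at chr6:153686425-153687635 and EGR1 (ENSSSCG00000014336) at chr2:140440829-140445302. It has FOSL2 (ENSSSCG00000032527) at chr3:110820403-110842903, JUNB (ENSSSCG00000013735) at chr2:66214086-66219435, IER3 (ENSSSCG00000027607) at chr7:23265560-23266905, KLF4 (ENSSSCG00000005437) at chr1:248604817-248609574 and MYC (ENSSSCG00000005965) at chr4:12455141-12460360.

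ATF3 was the only member called in either comparison with the control diet, and it was lower in WCOC. ATF3 lies on chromosome 9 (Sscrofa11.1, chr9:130772259-130829678, minus strand, Ensembl ENSSSCG00000015595), and RefSeq gives it 4 transcripts with 4 different starts. In the control pigs ATF3 measured 7.31, 18.3, 55.5, 17.3 and 77.4 CPM. In the DOP pigs it measured 5.86, 22.4, 2.72, 3.68 and 4.04 CPM. The WCOC pigs gave 6.25, 8.46, 3.04, 6.23 and 7.61 CPM. C replicates 3 and 5 were far above all other pigs, C replicate 1 lay within the WCOC range, and the WCOC pigs were the most alike of the 3 diets. The mean was 35.2 ± 29.9 CPM (SD, n = 5) in C, 7.74 ± 8.26 CPM in DOP and 6.32 ± 2.06 CPM among WCOC pigs.

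The fall of ATF3 in WCOC against C was 5.57-fold (log2FC -2.48, SE 0.67, adjusted p 0.0311, edgeR). Among the 10 members, 1 was called lower and 0 higher in this comparison, against 3.93% of all tested genes called lower and 2.33% called higher, and no member had values that did not overlap, against 7.62% of all genes. ATF3 is 1 gene singled out of 10, and a share of this size says little about the group. The call did not withstand a change of library: it was kept in 4 of the 10 fits that left out 1 library of C or WCOC, and lost without C replicate 3, C replicate 5 or WCOC replicate 1, 3, 4 or 5, the adjusted p reaching 0.0782. Within flow cell A alone, where 4 control and 5 WCOC libraries can be compared, the log2FC was -1.97 (adjusted p 0.0519), and within lane 2 of that flow cell it was -2.07 (adjusted p 0.172). Both of these settings leave out C replicate 5.

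In DOP the same gene was 4.56-fold lower than in C (log2FC -2.19, SE 0.66), but did not pass edgeR's test (adjusted p 0.123), whereas DESeq2 called it (adjusted p 0.0315). Without DOP replicate 2 the log2FC was -3.12 (adjusted p 0.0656, edgeR), and the 4 remaining DOP pigs averaged 4.08 ± 1.32 CPM. Flow cell B holds only 1 control library, so no DOP comparison can be made within a flow cell. The comparisons of DOP and WCOC share the control pigs, C replicates 3 and 5 among them. Between the 2 olive diets ATF3 differed by a log2FC of -0.29 (WCOC minus DOP, SE 0.64, adjusted p 0.812, edgeR). The sign turned to 0.63 without DOP replicate 2, to 0.13 with limma-voom and to 1.36 with flow cell as a covariate. The 2 olive diets share no flow cell, so that the covariate was set by C replicate 5 against the other controls. C replicate 5 had the highest ATF3 of all pigs.

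All 11 macrophage markers tested had a log2FC below 0 in WCOC against C, and 6 of them were called lower. All 11 measured macrophage markers were detected in every library, the lowest value being 1.92 CPM, so none of the defining markers was at 0. Their summed level was 288 to 848 CPM in the controls, 199 to 491 CPM in DOP pigs and 142 to 369 CPM in WCOC pigs, and the highest sums belonged to C replicate 5 (848 CPM) and C replicate 3 (659 CPM), the pigs with the highest ATF3. The order did not hold throughout: C replicate 2 had the lowest control sum (288 CPM) beside 18.3 CPM of ATF3, and C replicate 1 a sum of 400.4 CPM beside 7.31 CPM. In WCOC, 6 of the 11 were called lower and 0 higher (median log2FC -1.16, against 0.0043 over all tested genes), among them the scavenger receptor MSR1 (log2FC -2.68, SE 0.63, adjusted p 0.0175), the lysosomal glycoprotein CD68 (log2FC -2.11, SE 0.47, adjusted p 0.0141), the integrin subunit ITGAM (log2FC -1.42, SE 0.36, adjusted p 0.025) and the mannose receptor MRC1 (log2FC -1.19, SE 0.35, adjusted p 0.0423), by edgeR. In WCOC the call of CD68 was kept in all 10 fits that left out 1 library, and that of MSR1 in 9, being lost without WCOC replicate 1. The calls of ITGAM and AIF1 were kept in 5 and those of MRC1 and CD163 in 4, each of these lost without C replicate 3, C replicate 5 and WCOC replicates 1, 3 and 4, and MRC1 and CD163 also without WCOC replicate 5. In DOP the median log2FC of the 11 markers was -0.29, CD163 had 0.14, and only MSR1 was called (log2FC -3.18, SE 0.65, adjusted p 0.0397). That call was kept in 3 of the 10 fits, and lost without C replicate 3, 4 or 5 or DOP replicate 2, 3, 4 or 5, the adjusted p reaching 0.113 (edgeR). The most abundant marker per kilobase of RefSeq exons was C1QB (37.1 CPM per kb). In bulk tissue fewer cells of a type and less RNA per cell cannot be told apart, and the part of macrophages in the ATF3 result was not tested.

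**Figure D1:**
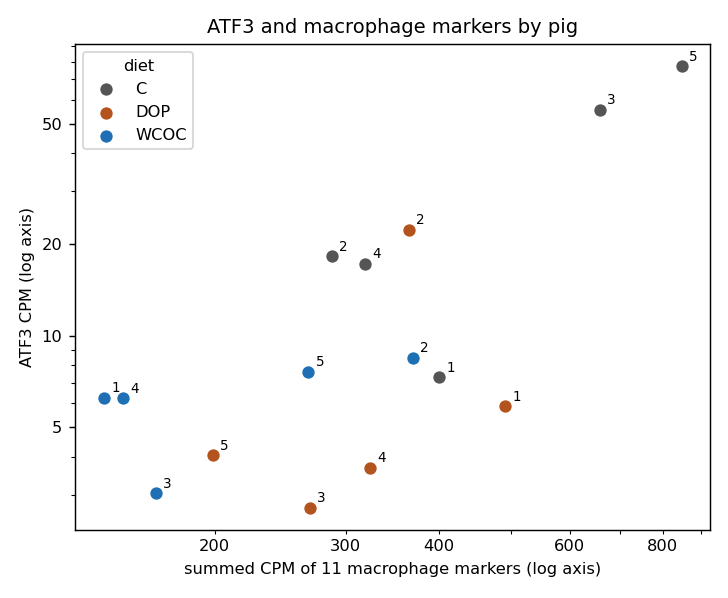
ATF3 level (vertical, CPM, log axis) against the summed level of 11 macrophage markers (horizontal, CPM, log axis) in 15 pigs, coloured by diet and labelled by replicate. C replicates 3 and 5 lie at the upper right (55.5 and 77.4 CPM of ATF3), while DOP replicate 1 has a high marker sum (491 CPM) beside 5.86 CPM of ATF3.

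The genes whose diet-centred levels were most like those of ATF3 over the 15 libraries were AMPD3, an AMP deaminase (Pearson r 0.954), MAFF, a small MAF protein of the same leucine zipper class (r 0.93), CD48, a leukocyte surface receptor (r 0.929), SRGN, the proteoglycan of blood cell granules (r 0.925), and PLXNC1, a semaphorin receptor (r 0.923). These were the top 5 of 11133 genes, chosen for their likeness. All 5 had their maximum in C replicate 5. With DOP replicate 2 dropped after the centring, r was between 0.917 and 0.962, but the DOP means still held the values of that pig. Their own log2FC in WCOC ran from -1.78 for CD48 to -1.03 for SRGN, and only PLXNC1 was not past the adjusted p threshold (adjusted p 0.0767, edgeR).

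ATF3 was also one of the genes that the study measured by RT-qPCR, and its primer pair shows which part of the transcript was read. Both primers, in capitals throughout because each base matched the genome, lie in coding sequence shared by all 4 RefSeq transcripts, the forward primer in exon 2 and the reverse primer in exon 4 of a 4-exon transcript.
Forward primer, minus strand, chr9:130778958-130778978: ACCCCTCGAGATGTCAGTCAC
Reverse primer, plus strand, chr9:130773668-130773691: CTCCTCAATTTGGGCCTTCAGTTC

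FOS, FOSB and EGR1 were dominated by a single pig. FOS, the partner of JUN in the classical AP-1 dimer, measured 17.8, 2.43, 13.9, 3.12 and 7.72 CPM in C. In DOP it measured 3.86, 445, 2.5, 1.88 and 10.6 CPM. The WCOC pigs had 22.6, 4.01, 1.67, 5.34 and 6.2 CPM. DOP replicate 2 stood 19.7-fold above the highest other library, WCOC replicate 1, and the remaining pigs of all 3 diets overlapped.

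FOSB, the closest relative of FOS, measured 6.77, 0.555, 1.82, 3.16 and 2.52 CPM in C. The DOP pigs gave 1.69, 415, 1.30, 1.35 and 7.18 CPM. In WCOC the values were 17.9, 2.47, 0.457, 3.37 and 9.18 CPM. As for FOS, DOP replicate 2 was the highest, 23.2-fold above WCOC replicate 1, and the 3 diets overlapped. EGR1, which binds GC-rich sites, measured 17.1, 6.75, 21.6, 7.95 and 15.4 CPM in C. In DOP the levels were 12.8, 438, 6.05, 4.13 and 14.5 CPM. WCOC pigs had 29.4, 9.47, 6.37, 20.1 and 13 CPM. The gap was 14.9-fold over the next library, again WCOC replicate 1.

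In DOP against C, FOS (log2FC 3.37, SE 1.38, adjusted p 0.226), FOSB (log2FC 4.86, SE 1.62, adjusted p 0.15) and EGR1 (log2FC 2.79, SE 1.10, adjusted p 0.209) had large positive estimates that did not pass edgeR's test. Each turned negative without DOP replicate 2, to -0.94, -0.04 and -0.56. In WCOC against C the log2FC was -0.17 for FOS (SE 1.29), 1.19 for FOSB (SE 1.47) and 0.19 for EGR1 (SE 1.04), with adjusted p of 0.644 or more (edgeR). The largest of these, in FOSB, fell to 0.41 without WCOC replicate 1. DESeq2 gave no p for FOS, FOSB, JUN or EGR1, because its outlier filter set them aside.

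The sequence before the 10 genes was read for sites of the factors named above. In RefSeq the FOS transcript starts at the start codon, and a first search before the transcript starts, given below, found almost no match. The 1000 bases before the start codon were then searched on both strands, a window chosen with that first result known. The motifs were CArG boxes, the AP-1 site TGANTCA, the cAMP response element TGACGTCA and the EGR site GCGGGGGCG. A CArG box was found for 4 of the 10 genes, FOS, FOSB, EGR1 and MYC, while 5.12% of 19528 protein-coding genes have one in the same window. EGR1 alone had 5. An AP-1 site was found for FOSL2 only (22.6% of all genes), an EGR site for JUN and EGR1 (8.8%), and no cAMP response element for any of the 10 (2.58%). The shorter window of 400 bases before the annotated transcript start, used first, held no CArG box, AP-1 site or cAMP response element in any member (2.28%, 8.61% and 1.92% of 19530 genes) and 1 EGR site, that of EGR1 (6.57%). Only the outermost annotated start of each gene was read. ATF3 has 4 starts, FOSL2 3 and KLF4 2, so their other starts were not searched in this window. Both windows are genomic sequence, so the 1000 bases can hold intron where the start codon lies in a later exon. A match is a run of letters and not a measured site. Among the other genes with a CArG box, the diet-centred Pearson r with FOS ran from 0.388 (MYC) to 0.972 (EGR1). Among the members without one it ran from 0.230 (FOSL2) to 0.923 (JUN). A link between the matches and the correlations was not tested. The matches below are read on the strand of the gene from the RefSeq Sscrofa11.1 sequence, with the CArG box in capitals and 10 bases on each side.
FOS, 456 bases before the start codon, upstream of the annotated transcript, chr7:98449042-98449071: cacaggatgtCCATATTAGGacatctgcgt
FOSB, 831 bases before the start codon, in an annotated exon ahead of its coding part, chr6:51837436-51837465: gcgccgagctCCTTATATGGctaattgcgt
EGR1, 731 bases before the start codon, in an annotated exon ahead of its coding part, chr2:140440976-140441005: cccggaaacgCCATATAAGGagcaggaagg
EGR1, 693 bases before the start codon, chr2:140441014-140441043: ccggaaccacCCTTATTTGGgcagcgcctt
EGR1, 677 bases before the start codon, chr2:140441030-140441059: ttgggcagcgCCTTATTTGGagcgccccga
EGR1, 409 bases before the start codon, chr2:140441298-140441327: gccggtcttgCCATATTAGGgcttcctgct
EGR1, 387 bases before the start codon, chr2:140441320-140441349: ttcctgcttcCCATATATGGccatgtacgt
MYC, 595 bases before the start codon, across the annotated transcript start, minus strand, chr4:12460345-12460374: gcccaccggcCCTTTATAGGcgagggtctg

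JUN, JUNB and KLF4 were raised in the same pig, by less. JUN, the main partner of FOS, measured 48.0, 35.2, 50.1, 46.4 and 59.5 CPM in C. DOP pigs had 35.1, 173, 33.5, 39.9 and 47.9 CPM. In WCOC it measured 71.3, 51.8, 46.3, 67.0 and 66.6 CPM. WCOC replicates 1, 4 and 5 exceeded every control pig, yet the ranges overlapped. JUNB, an AP-1 member that often restrains JUN, measured 6.87, 7.18, 13.4, 6.58 and 18.6 CPM in C. In DOP it gave 9.48, 59.6, 4.69, 4.17 and 5.82 CPM. The WCOC values were 11.4, 8.05, 5.84, 8.86 and 9.56 CPM. C replicates 3 and 5, the pigs with the highest ATF3, also had the highest JUNB after DOP replicate 2. KLF4, a zinc finger factor of early adipogenesis, measured 41.9, 31.6, 35.8, 22.2 and 39.4 CPM in C. The DOP pigs gave 39.4, 137, 26.6, 24.4 and 24.8 CPM. In WCOC the levels were 57.7, 33.9, 34.4, 63.9 and 53.2 CPM. WCOC replicates 1, 4 and 5 lay above all control pigs and replicates 2 and 3 among them.

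None of JUN, JUNB and KLF4 was called. JUN had a log2FC of 0.46 (SE 0.38) in DOP and 0.34 (SE 0.38) in WCOC, KLF4 of 0.56 (SE 0.43) and 0.51 (SE 0.43), and JUNB of 0.67 (SE 0.64) and -0.27 (SE 0.64), with adjusted p between 0.474 and 0.823 (edgeR). DOP replicate 2 exceeded the highest other library 2.42-fold for JUN, 3.21-fold for JUNB and 2.15-fold for KLF4. Without it the DOP estimates were -0.30, -0.81 and -0.25, and JUN was then called higher in WCOC than in DOP (log2FC 0.63, adjusted p 0.0354, edgeR), where with all libraries the log2FC was -0.12 (adjusted p 0.877).

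FOSL2, IER3 and MYC spanned at most 2.14-fold within a diet. FOSL2, a FOS relative active in fat, measured 14.4, 21.7, 20.2, 14.2 and 28.9 CPM in C. In DOP it measured 27.9, 23.2, 17.2, 13.1 and 16 CPM. WCOC pigs gave 19.6, 13.8, 21, 19.5 and 19.1 CPM. WCOC replicate 2 was the lowest of its diet, the 3 diets overlapped, and the log2FC was -0.03 in DOP (SE 0.22, adjusted p 0.961) and -0.10 in WCOC (SE 0.22, adjusted p 0.819). IER3 measured 7.55, 6.66, 8.79, 12.3 and 9.14 CPM in C. The DOP levels were 7.95, 12.6, 7.32, 7.89 and 6.62 CPM. In WCOC the values were 7.72, 11.2, 6.95, 11 and 8.08 CPM. The ranges of the 3 diets nearly coincided, with a log2FC of -0.07 in DOP (SE 0.21, adjusted p 0.896) and 0.01 in WCOC (SE 0.21, adjusted p 0.979).

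MYC measured 13.7, 16.5, 17.8, 14.1 and 23.2 CPM in C. In DOP it gave 23.9, 25.3, 16.9, 15.7 and 15.8 CPM. The WCOC pigs had 11.9, 15.2, 11.4, 14.9 and 13.6 CPM. Every WCOC pig was below every DOP pig, while both overlapped with C. The log2FC of WCOC against DOP was -0.54 (SE 0.17, adjusted p 0.0517, edgeR), short of both thresholds, and with DESeq2 the adjusted p was 0.0221 at the same size of change. Without DOP replicate 4 it passed both (log2FC -0.62, adjusted p 0.0489). The difference was 0.04 with flow cell as a covariate. WCOC and DOP share no flow cell, so that the covariate was set by C replicate 5 against the other controls. C replicate 5 had the highest MYC of the control pigs (23.2 CPM). The value with the covariate therefore rests on that pig, and the part of flow cell in the MYC difference was not tested. Against C, MYC had a log2FC of 0.19 in DOP (SE 0.17, adjusted p 0.612) and -0.35 in WCOC (SE 0.17, adjusted p 0.211).

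**Figure D2:**
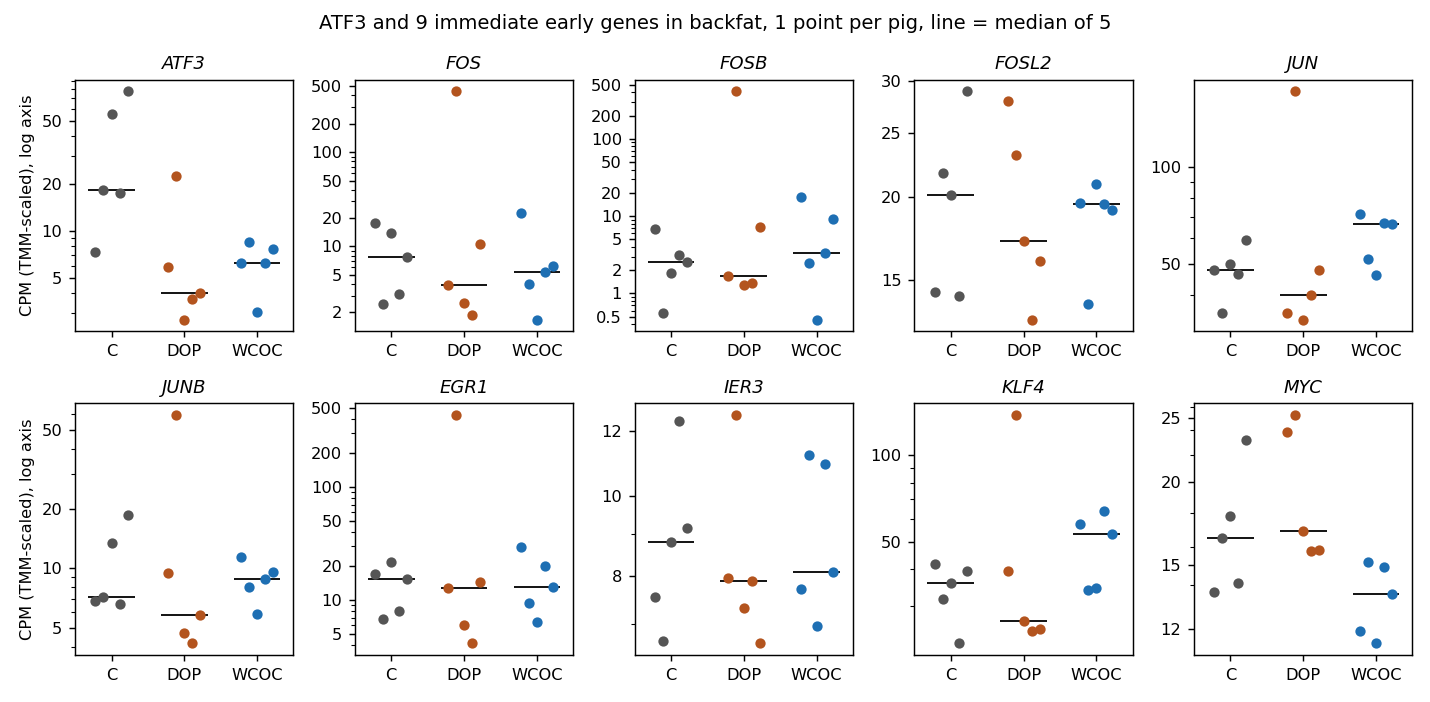
Level of each of the 10 genes (vertical, CPM, log axes that differ between panels) by diet, with 1 point per pig (replicates 1 to 5 from left to right) and a line at the median of 5. DOP replicate 2 is far above the rest for FOS (445 CPM), FOSB (415 CPM) and EGR1 (438 CPM), ATF3 is highest in C, and MYC in WCOC (11.4 to 15.2 CPM) lies below all DOP pigs.

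Counted over the group, 0 of the 10 members were called in DOP against C (edgeR; 4 had an unadjusted p under 0.05, ATF3, FOS, FOSB and EGR1; 1 was called by DESeq2 and 0 by limma-voom). With 1 library left out at a time, 1893 to 2846 of all tested genes had such a p (edgeR). With all libraries 14918 genes were tested. Of all tested genes 0.55% were called lower and 0.215% higher, and 3.47% had values that did not overlap between the diets, against 0 of the 10 members. In WCOC against DOP, 0 members were called (4 with an unadjusted p under 0.05, FOS, FOSB, EGR1 and MYC; 0 called by DESeq2 or limma-voom), where 5.11% of all genes were called lower and 2.65% higher. Here 3616 to 4382 of all tested genes had an unadjusted p under 0.05 with 1 library left out at a time (edgeR). MYC was the only member whose values did not overlap between the olive diets, against 8.9% of all genes. The median log2FC of the members was 0.51 in DOP, -0.04 in WCOC and -0.42 in WCOC against DOP, beside 0.0114, 0.0043 and 7e-04 over all genes, and the first and the last of these contain the values of DOP replicate 2.

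**Figure D3:**
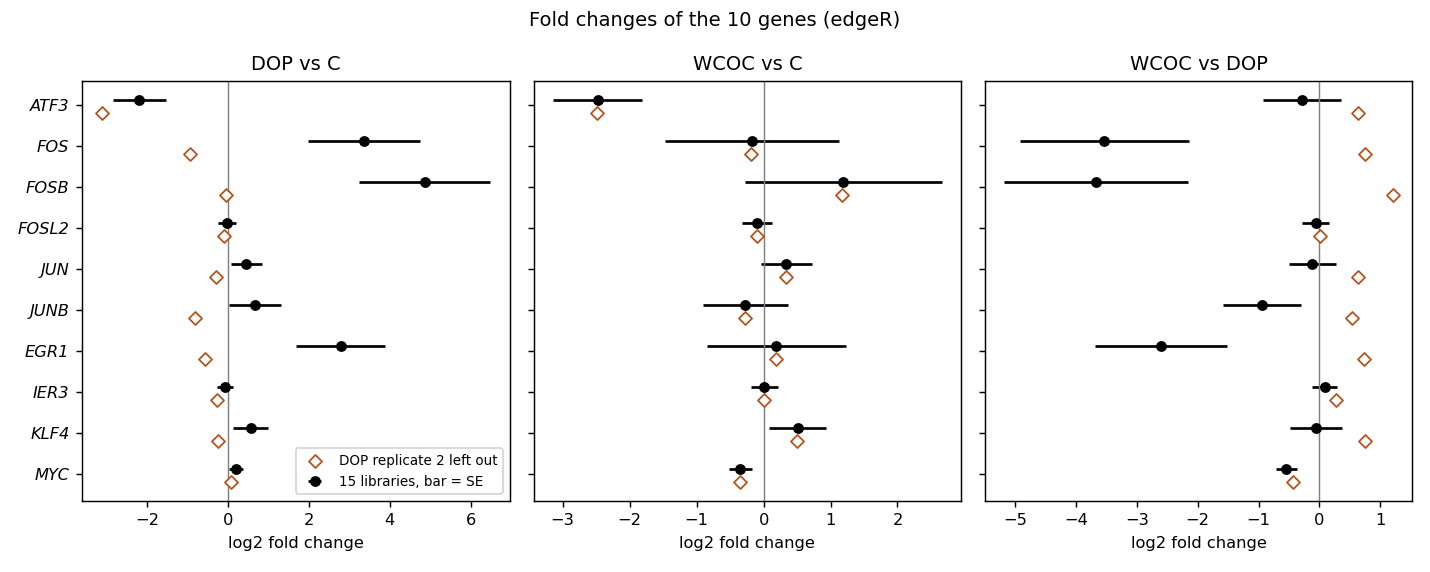
Log2 fold change of the 10 genes (horizontal) in DOP against C, WCOC against C and WCOC against DOP, with filled circles and SE bars from the fit of 15 libraries and open diamonds without DOP replicate 2. The estimates of FOS, FOSB, EGR1, JUN, JUNB and KLF4 in DOP turn negative without that pig, whereas ATF3 stays below 0 in both olive diets and the WCOC estimates against C hardly move.

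DOP replicate 2 was the highest of the 15 libraries in 8 of the 10 members, while 4.57% of all tested genes peaked there. The exceptions were ATF3 and FOSL2, which peaked in C replicate 5. Of the 8, IER3 and MYC were only 1.02- and 1.06-fold above the next library. Of 19 genes that switch the response off, 9 also peaked in this pig and 10 were higher in another library. The members of this list that stood farthest out were ZFP36, PPP1R15A and DUSP1, DUSP2 and DUSP5, named after their values were seen. ZFP36, whose protein speeds the decay of early RNAs, measured 245.9 CPM, 4.31-fold above the next library. DUSP1, DUSP2 and DUSP5, phosphatases of the kinases upstream, were 3.06-, 3.55- and 2.95-fold above the next library, at 149, 4.30 and 6.26 CPM. PPP1R15A, which reverses the phosphorylation of eIF2, was 2.19-fold above (38.9 CPM). Of 17 other immediate early regulators, 4 peaked there and 13 elsewhere. CCN1, a secreted matrix protein, was 1.99-fold above the next library (37.0 CPM). Of the relatives of EGR1, EGR3 was 2.81-fold above the next library (4.00 CPM), while EGR2 at 15.9 CPM was exceeded by C replicate 5. HBB, the beta globin of red blood cells, reached 15329 CPM in this library, 4.68-fold above the next, and the muscle actin ACTA1 6543 CPM. DOP replicate 5, with the most muscle RNA, had 10.6 CPM of FOS and 14.5 CPM of EGR1, and WCOC replicate 5, with the second highest sum of red blood cell genes (3364 CPM), had 6.2 CPM of FOS. All 3 lymphocyte markers tested, CD3D, CD3E and CD2, also peaked in DOP replicate 2, but at low levels (3.59, 5.17 and 5.96 CPM). They were only 1.09-, 1.07- and 1.36-fold above the next library. The part of blood, lymphocytes or muscle in the values of DOP replicate 2 was not tested.

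**Figure D4:**
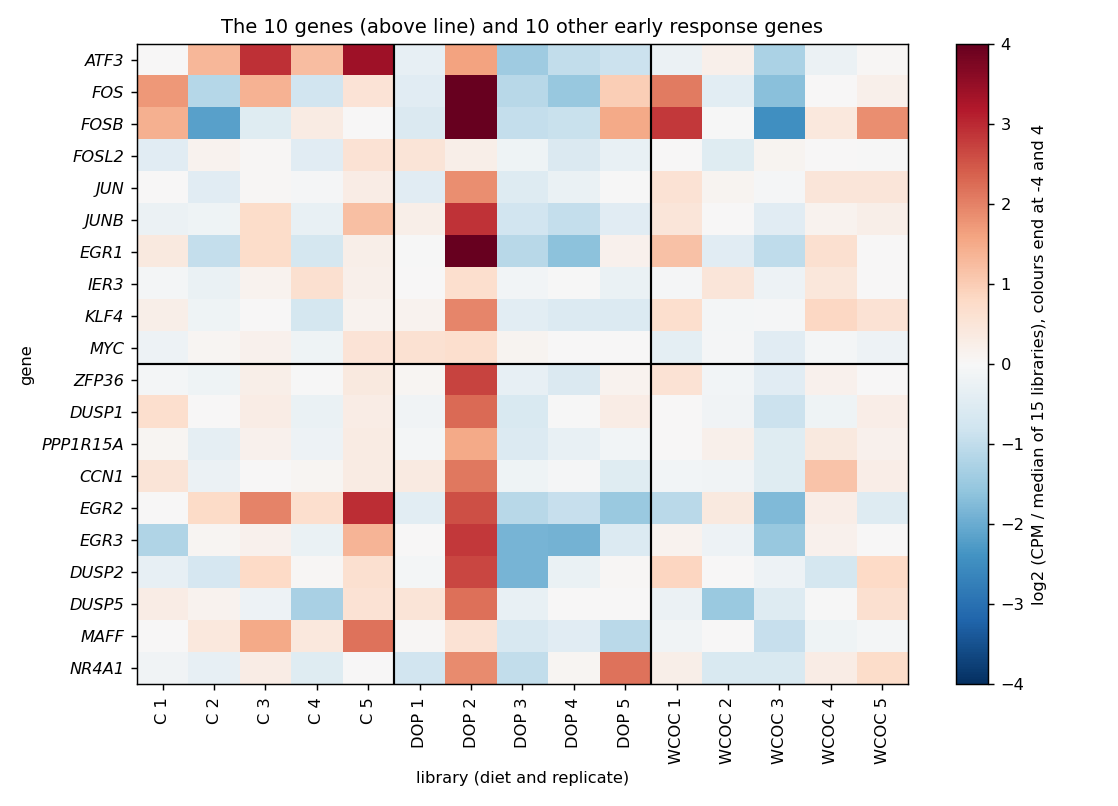
Level of the 10 genes and, below the line, of 10 other early response genes chosen after their values were seen (rows), in the 15 libraries (columns), as log2 of the CPM over the median of the libraries, with colours ending at -4 and 4. DOP replicate 2 is a dark column through FOS, FOSB, EGR1, JUNB, ZFP36 and the DUSP genes, while ATF3, EGR2 and MAFF have their maximum in C replicate 5.

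Some pairs of members varied together from pig to pig. Over 15 libraries, with each diet centred on its mean and libraries permuted within diets, 19 of the 45 pairs had a positive Pearson correlation past an adjusted p of 0.05 (Benjamini-Hochberg over the 45 pairs), and no pair with IER3 was among them. The closest pair was FOS and EGR1 (r 0.972, Spearman rho 0.946, permutation p 0.0009 and 0.00135 after adjustment). The r of this pair was 0.891 (adjusted p 0.0194, permutation) without the 2 libraries farthest from the median of FOS, 0.914 without DOP replicate 2 (adjusted p 0.00225, permutation) and 0.937 in the 9 libraries of flow cell A (adjusted p 0.0589, permutation). FOS and FOSB followed (r 0.945, rho 0.879, permutation p 0.00315 and 0.0054 after adjustment), with r 0.783 without the 2 farthest libraries and 0.840 without DOP replicate 2.

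Most of the other pairs no longer passed without DOP replicate 2. The median r of the 45 pairs was then 0.39, against 0.60 with all libraries, and 39 pairs still had a positive r. Without it 6 of the 45 pairs passed (permutation, adjusted): FOS with EGR1, FOS with FOSB, FOSB with JUN (r 0.792), ATF3 with JUNB (r 0.842), ATF3 with MYC (r 0.794) and JUNB with MYC (r 0.797). Within flow cell A 0 of 45 passed at n = 9. JUN and KLF4, for example, had r 0.867 with all libraries and 0.424 without DOP replicate 2.

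The pairs of ATF3 that passed without DOP replicate 2 were those with JUNB and MYC. ATF3 and JUNB had r 0.851 and rho 0.868 (permutation p 0.00405 and 0.00558 after adjustment), ATF3 and MYC r 0.841 and rho 0.871 (permutation p 0.00158 and 0.0054 after adjustment). Without the 2 libraries farthest from the median of ATF3, r was 0.867 and 0.785. ATF3 and FOS had r 0.571 with all libraries (adjusted p 0.10, permutation) and 0.186 without DOP replicate 2 (adjusted p 0.75, permutation). Without the 2 farthest libraries, however, r of ATF3 was 0.654 with FOS, 0.743 with EGR1 and 0.759 with JUN, with adjusted p of 0.194 or more (permutation), and whether the correlations of ATF3 differ between these genes was not tested.

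**Figure D5:**
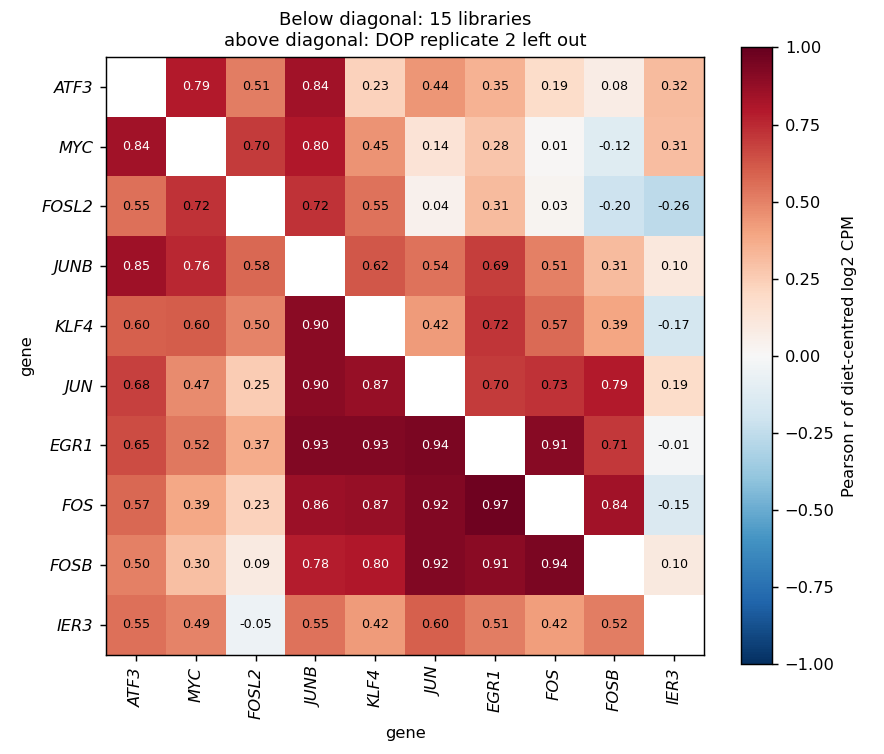
Pearson r of diet-centred log2 CPM for every pair of the 10 genes, with 15 libraries below the diagonal and without DOP replicate 2 above it. The block of FOS, FOSB, EGR1 and JUN keeps r of 0.70 or more above the diagonal, ATF3, MYC and JUNB form another group (0.79 to 0.84), and IER3 has r between -0.26 and 0.32 with the other genes there.

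The 5 genes most like FOS, over the same 11133 genes, were EGR1, FOSB, ZFP36 (r 0.93), DUSP1 (r 0.928) and JUN, each with its maximum in DOP replicate 2. With that pig dropped after the centring, r with FOS was 0.823 for ZFP36 and 0.818 for DUSP1. The DOP means still held its values, which can raise r. For EGR1 this way gave 0.933, against 0.914 when the diets were centred again without that pig. Neither ZFP36 nor DUSP1 was called in a diet: the log2FC was 0.93 for ZFP36 (adjusted p 0.372, edgeR) and 0.56 for DUSP1 (adjusted p 0.563) in DOP, and -0.01 (adjusted p 0.996) and -0.36 (adjusted p 0.644) in WCOC.

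Lists of genes around the members held few calls in WCOC, at shares to be read against the background given above. Of 8 tested partners of AP-1, 2 were called lower and 0 higher in WCOC against C (median log2FC -0.45): MAFF (log2FC -1.37, SE 0.40, adjusted p 0.0423) and MAFG (log2FC -0.65, SE 0.11, adjusted p 0.00369), both small MAF proteins that lack an activation domain. MAFG was 18.5 to 26 CPM in C and 11.9 to 17.5 CPM in WCOC with no overlap, whereas MAFF was highest in the controls with high ATF3 (23.8 CPM in C replicate 3, 37.5 CPM in C replicate 5). MAFG stayed called with any library left out, and MAFF in 4 of the 10 fits, being lost without C replicate 3, C replicate 5 or WCOC replicate 1, 3, 4 or 5. The most abundant of the list per kilobase was MAF, which was lower in WCOC than in DOP (log2FC -1.07, SE 0.27, adjusted p 0.0209, edgeR), was the only 1 of the 8 called there, and lost the call without WCOC replicate 1 (adjusted p 0.0546, edgeR). No partner was called in DOP against C (median log2FC 0.0072).

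Of 17 other immediate early regulators, 1 was called lower and 2 higher in WCOC against C (median log2FC 0.01). PLK2, a polo-like kinase, rose from 14 to 21.4 CPM in C to 23.8 to 39.7 CPM in WCOC without overlap (log2FC 0.85, SE 0.14, adjusted p 0.00267). KLF2, a relative of KLF4 that responds to blood flow in endothelium, and the most abundant per kilobase of the 14 listed genes with a RefSeq exon length, rose (log2FC 0.69, SE 0.21, adjusted p 0.047), and the kinase SGK1 fell (log2FC -0.76, SE 0.21, adjusted p 0.0364, edgeR). In the same comparison all 7 endothelial markers had a log2FC above 0 (median 0.42), and 1 of them, the transcription factor ERG, was called higher (log2FC 0.64, SE 0.10, adjusted p 0.00176). The part of endothelium in the KLF2 result was not tested. The call of PLK2 was kept in all 10 fits that left out 1 library of C or WCOC, that of SGK1 in 4 and that of KLF2 in 3, the adjusted p of KLF2 reaching 0.112 (edgeR). SGK1 was lost without C replicate 2, 3 or 5 or WCOC replicate 1, 2 or 5, and KLF2 without C replicate 2, 3, 4 or 5 or WCOC replicate 1, 4 or 5. None of the 17 was called in DOP against C (median log2FC -0.11) or in WCOC against DOP.

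Among 19 feedback inhibitors DUSP4, a nuclear phosphatase of ERK, was the only gene called in WCOC against C, and 0 were called in DOP (median log2FC 0.04 and 0.29). DUSP4 measured 96.2 to 168.6 CPM in C and 21.7 to 83.5 CPM in WCOC without overlap (log2FC -1.47, SE 0.30, adjusted p 0.0092, edgeR). It was also lower in WCOC than in DOP (log2FC -1.06, adjusted p 0.0337), as was SPRY2, another brake on ERK (log2FC -0.59, adjusted p 0.00302). Against C the DUSP4 call was kept with any library left out. Against DOP it was kept in 3 of 10 fits, lost without DOP replicate 1, 2 or 5 or WCOC replicate 1, 2, 3 or 4, and that of SPRY2 in 7. Without DOP replicate 1 or 2 or WCOC replicate 5 the change of SPRY2 was smaller than the fold required for a call, while its adjusted p was at most 0.0098 in all 10 fits (edgeR). The most abundant inhibitor per kilobase, BTG1, was not called. Of 19 upstream kinases and SRF factors, RPS6KA1, the ribosomal S6 kinase RSK1, fell in both olive diets against the shared controls (log2FC -1.53, SE 0.34, adjusted p 0.0484 in DOP; log2FC -1.50, SE 0.34, adjusted p 0.0148 in WCOC), and the other 18 were not called in either. The WCOC call was kept in all 10 fits that left out 1 library. In DOP it was kept in 3, and lost without C replicate 3, 4 or 5 or DOP replicate 2, 3, 4 or 5, the adjusted p reaching 0.127 (edgeR). Its control values included 38.5 CPM in C replicate 3 and 52.6 CPM in C replicate 5, the pigs with the most ATF3 and macrophage markers. The most abundant per kilobase of the 17 with an exon length was MAP2K2.

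In the integrated stress response, the pathway through which ATF4 can induce ATF3, 2 of 16 genes were called lower and 0 higher in WCOC against C (median log2FC -0.12), and 0 in DOP (median log2FC -0.06). TRIB3, a pseudokinase, measured 29.2 to 67.2 CPM in C and 18.9 to 28.8 CPM in WCOC without overlap (log2FC -1.07, SE 0.26, adjusted p 0.0188), and the transcription factor ATF5 fell with overlap (log2FC -0.76, SE 0.19, adjusted p 0.0222, edgeR). ATF5 and DDIT4 were lower in WCOC than in DOP (log2FC -0.63 and -0.76, adjusted p 0.0413 and 0.0324). TRIB3 lost its call without WCOC replicate 1 (adjusted p 0.0556, edgeR), and ATF5 its call against C without WCOC replicate 1, 3 or 4. Against DOP the call of ATF5 was kept in 2 of 10 fits, in those without DOP replicate 1 or WCOC replicate 2, and that of DDIT4 in 3, in those without DOP replicate 1 or 2 or WCOC replicate 2. CEBPB was the most abundant per kilobase and was not called. Of the 11 genes of the MYC network, MXD3, which competes with MYC for MAX, was the only 1 called in WCOC. It measured 7.77 to 9.17 CPM in C, 7.70 to 9.99 CPM in DOP and 3.50 to 4.87 CPM in WCOC, so that every WCOC pig was below every other pig (log2FC -1.07, SE 0.11, adjusted p 0.000186 against C and log2FC -1.09, SE 0.11, adjusted p 0.000394 against DOP, edgeR). Both calls were kept in every fit that left out 1 library. The most abundant member per kilobase, MLXIPL, the carbohydrate response factor ChREBP, was not called.

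Markers of other cell types in backfat also differed in WCOC. Of 7 fibroblast markers 3 were called lower and 0 higher against C (median log2FC -0.51): the small proteoglycan LUM (log2FC -1.17, SE 0.23, adjusted p 0.00808) and the collagens COL1A1 (log2FC -0.93, SE 0.28, adjusted p 0.0483) and COL1A2 (log2FC -0.91, SE 0.25, adjusted p 0.0362, edgeR). LUM was kept in all 10 fits that left out 1 library, COL1A1 only without WCOC replicate 2, and COL1A2 without C replicate 1, C replicate 4 or WCOC replicate 2. LUM and PDGFRA were the markers of this list called lower against DOP, calls kept in 10 and 5 of 10 fits. Of 9 adipocyte markers 1 was called higher against C, ADIPOQ, the gene of the hormone adiponectin (log2FC 0.66, SE 0.17, adjusted p 0.0281), and this call was lost without C replicate 2 or 3 or WCOC replicate 1 or 5. LEP, the gene of leptin, was called higher against DOP (log2FC 1.08, adjusted p 0.014, edgeR). Per kilobase the most abundant markers were ADIPOQ, COL3A1 of the fibroblast list, PECAM1 of the endothelial list, ACTA1 of the muscle list, CD2 of 3 lymphocyte markers and KRT10 of 5 epidermis markers. No lymphocyte or epidermis marker was called against C in either diet. Against DOP the epidermis markers KRT1 and DSG1 were called higher and the muscle marker TNNT3 lower in WCOC, calls kept in 4, 3 and 5 of 10 fits. Without WCOC replicate 5 DSG1 did not pass the filter on low counts and was not tested. The part of these cell types in the values of the 10 genes was not tested.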

How the data were processed

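The authors aligned read pairs to Sscrofa11.1 with HISAT2, using its strand-specific setting, with HTSeq as the counter of read pairs on Ensembl genes. The deposited values are raw counts per gene, 1 library per pig, neither normalized nor pooled. Tool versions, the annotation release and the strand option of the counting are not given in the sources used here, so counts of overlapping or antisense genes are uncertain. Read pairs not counted on genes (23.4% to 32.8% of a library) stayed out of library sizes and tests.

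Genes kept by filterByExpr were fitted with edgeR 4.0.16 in R 4.3.3 (TMM scaling, 1 mean per diet, all 15 libraries, two-sided, Benjamini-Hochberg over 14918 genes). Log2 CPM used a prior count of 1. Correlations used 100000 permutations within diets (numpy 2.4.6). The workflow was tested on simulated data. DESeq2 1.42.0, limma-voom 3.58.1, other filters and scalings, flow cell, replicate block and each library left out were the alternatives, and for called genes of the other lists the fits that left out 1 library were added after the data were seen. Positions, exons and sequences are from RefSeq Sscrofa11.1. JUND, BATF, ATF4, ELK1 and further list genes could not be matched to a symbol. The 10 genes and all lists were chosen with earlier results of these data known. The text names every member, and of each other list its most abundant gene per kilobase and up to 4 called genes with the largest change; other names were chosen after their values were seen. The labels give 5 replicate pigs per diet, and flow cells come from run identifiers.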

Additional observations from a re-analysis of the deposited data

Results flagged for a closer look

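Within a diet, the highest or lowest pig was set apart from its nearest neighbour by more than Dixon's critical value (0.71 for 5 samples) in 10 of the 30 groups of 5 pigs examined (10 genes in 3 diets). For independent, normally distributed values chance alone gives about 1 in 20. The values used were CPM without a log, and some of the genes vary together, so the 10 of 30 cannot be set against that rate. Of the 10 flagged, 8 were DOP replicate 2: FOS at 445 CPM, EGR1 at 438 CPM, FOSB at 415 CPM, JUN at 173 CPM, KLF4 at 137 CPM, JUNB at 59.6 CPM, ATF3 at 22.4 CPM and IER3 at 12.6 CPM. The same library had the highest sum of red blood cell genes (15849 CPM) and the second highest sum of skeletal muscle markers (8755 CPM). The other 2 were WCOC replicate 1 for FOS, at 22.6 CPM, and WCOC replicate 2 for FOSL2, which was the lowest of its diet at 13.8 CPM.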

How the results depend on the processing

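The call of ATF3 as lower in WCOC than in C held with DESeq2, its size factors, both other filters, robust quasi-likelihood, a fit of the 2 diets alone and without DOP replicate 2. No member (0) was called with the replicate block, flow cell as a covariate, limma-voom, flow cell A alone or its lane 2 alone, and 0 to 1 when 1 library was left out. C replicate 5 is the only library of C and WCOC on flow cell B. The settings of flow cell and lane therefore set that pig aside and are not separate from leaving it out (ATF3 log2FC -1.97 without it). In WCOC against DOP the count was 0 to 1 over the libraries left out, JUN without DOP replicate 2 and MYC without DOP replicate 4. DESeq2 called 1 member, ATF3, in DOP against C. Replicate numbers did not pair the pigs: same-numbered libraries correlated at r -0.495 to 0.345, with 3 of 15 pairs over 0.1. The replicate block moved the genes called from 114 to 0 in DOP against C and from 933 to 473 in WCOC against C (ATF3 adjusted p 0.0781). The count of 19 correlated pairs past the threshold became 0 in flow cell A alone, 5 without the 2 farthest libraries and 6 without DOP replicate 2.

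Of the member log2FC recomputed, 531 kept direction and side of the threshold, 11 lost the call, 2 gained it and 66 changed sign, none of those a value called with all libraries; apart from those that left out a library, whose construction shows the cause, the cause was not tested. In DOP against C, JUNB was -0.033 with the replicate block, -0.15 with flow cell and -0.16 with limma-voom, and MYC -0.25 with flow cell. Without DOP replicates 2 and 5, FOS was -1.71, FOSB -1.03, JUN -0.41, JUNB -0.79, EGR1 -0.85 and KLF4 -0.18. In WCOC against C, IER3 was -0.011 with the replicate block, -0.0007 with limma-voom and -0.046 in lane 2. FOSL2 was 0.078 with flow cell, 0.069 in flow cell A and 0.032 in lane 2, JUNB 0.033 with flow cell and 0.024 in flow cell A, and FOS 0.011 in lane 2. In WCOC against DOP, JUN was 0.12 and KLF4 0.25 with the replicate block. With flow cell ATF3 was 1.36, FOSL2 0.65, JUN 0.29, JUNB 0.18, KLF4 0.21 and MYC 0.037, and with limma-voom ATF3 was 0.13, JUN 0.20 and KLF4 0.28. In both comparisons with DOP the values with flow cell rest on C replicate 5, the only control on flow cell B. In WCOC against C the covariate sets that pig aside, as do flow cell A and lane 2.

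With 1 library left out at a time, the log2FC that changed sign ranged as follows. In DOP against C EGR1 -0.56 to 3.10, FOS -0.94 to 3.76, FOSB -0.040 to 5.39, FOSL2 -0.20 to 0.14, IER3 -0.27 to 0.072, JUN -0.30 to 0.62, JUNB -0.81 to 0.97, KLF4 -0.25 to 0.74. In WCOC against C EGR1 -0.17 to 0.40, FOS -1.06 to 0.21, FOSL2 -0.20 to 0.078, IER3 -0.087 to 0.16, JUNB -0.41 to 0.033. In WCOC against DOP ATF3 -0.51 to 0.63, EGR1 -2.96 to 0.74, FOS -4.42 to 0.75, FOSB -4.45 to 1.21, FOSL2 -0.18 to 0.10, IER3 -0.0087 to 0.27, JUN -0.29 to 0.63, JUNB -1.19 to 0.53, KLF4 -0.24 to 0.75.

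The 5 pigs per diet, 1 pen per diet, a compound feed level that differed between C and the olive diets and a flow cell that holds all DOP libraries limit these comparisons. The p-values measure the spread between the pigs of these pens.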

Other observations

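EGR2 and NR4A1, which are early response factors outside the 10 genes, combined the patterns described above. EGR2 measured 20.5 CPM in C replicate 5, 15.9 CPM in DOP replicate 2, 10.5 CPM in C replicate 3 and at most 4.49 CPM in the other 12 libraries, so that the pigs with the highest ATF3 and the pig with the highest FOS were also those with the highest EGR2. NR4A1, an orphan nuclear receptor, was highest in DOP replicate 5 (58.9 CPM), the library with the most muscle RNA, and next in DOP replicate 2 (48.5 CPM), where the median of the other libraries was 12.5 CPM. Both genes were picked out after their values were seen.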
